A study of Saccharomyces cerevisiae with 7 samples.

Results

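Occupancy by RNA polymerase II (RNAPII) was examined at 10 genes of budding yeast whose products place or remove the acetyl mark on lysine 56 of newly made histone H3 (H3-K56Ac), or act after it. They were chosen by name and function and not by a measured value, although earlier results of these data were known. All 10 had values among the 5781 open reading frames (ORFs) measured. They are *RTT109*, *ASF1*, *VPS75*, *HST3*, *HST4*, *RTT101*, *MMS1*, *MMS22*, *CAC2* and *RLF2*. None lies on chromosome IX, which was not analysed here. RNAPII was mapped by chromatin immunoprecipitation and sequencing (ChIP-seq) in asynchronous log-phase cells of the W303 background, grown in rich medium with 2% glucose at 30°C. The labels name the antibody to the RNAPII C-terminal domain as 8WG16 and the methods of the study name it 8WG18, and which form of RNAPII was captured was not settled here. The 3 genotypes were wild-type (WT), *rtt109Δ*, in which one of the 10 genes is itself deleted, and *rrp6Δ*, without Rrp6, a 3′ to 5′ exonuclease subunit of the exosome in the nucleus. The deletion strains came from the spores of heterozygous diploids. All samples were cross-linked with formaldehyde, at the same strength and for the same time. Beyond this fixation the sources give no drug or other treatment. Each genotype had 2 immunoprecipitated (IP) libraries, which shared 1 input library, so there were 7 samples.

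In budding yeast the histone chaperone Asf1 presents new H3-H4 dimers to the acetyltransferase Rtt109, and a chaperone of the Nap1 family, Vps75, binds and stimulates that enzyme. Acetylated H3 is then handed to chromatin assembly factor 1 (CAF-1), of which Rlf2 and Cac2 are subunits, and is laid down behind the replication fork. A ubiquitin ligase built from the cullin Rtt101, the adaptor Mms1 and the substrate receptor Mms22 acts downstream of the mark. The sirtuins Hst3 and Hst4 remove the acetyl group later in the cell cycle. A strain without Rtt109 lacks the mark, so its track shows whether RNAPII over the other genes of the same pathway differs when the pathway has lost its enzyme.

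In the R64 annotation the ORFs of the acetylating module were *RTT109* (YLL002W) at 146291 to 147601 of chromosome XII, *ASF1* (YJL115W) at 196287 to 197126 of chromosome X and *VPS75* (YNL246W) at 185460 to 186349 of chromosome XIV. The deacetylase genes were *HST3* (YOR025W) at 378219 to 379562 of chromosome XV and *HST4* (YDR191W) at 842337 to 843449 of chromosome IV. The ligase genes were *RTT101* (YJL047C) at 349580 to 352108 of chromosome X, *MMS1* (YPR164W) at 870703 to 874926 of chromosome XVI and *MMS22* (YLR320W) at 771940 to 776304 of chromosome XII. The CAF-1 subunit genes were *CAC2* (YML102W) at 68294 to 69700 of chromosome XIII and *RLF2* (YPR018W) at 594476 to 596296 of chromosome XVI. *RTT101* is on the reverse strand and the other 9 are on the forward strand. Their ORFs run from 840 bp (*ASF1*) to 4365 bp (*MMS22*), and they hold from 17 to 88 windows.

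Each genotype had 1 track of IP to input ratios, with 1 value for each 100 bp window at 50 bp steps, and its replicates were merged before deposit. There is therefore no replicate error and no test between genotypes, and each difference given here is between single tracks. The comparisons of *rtt109Δ* and of *rrp6Δ* with WT share the WT track. The read depth is unknown. The median window was 1 in every track, and the windows of *rtt109Δ* were the least spread out, with an SD of 0.661 where WT had 0.897 and *rrp6Δ* 0.904. An ORF's level was the average ratio over its windows, those whose centre falls inside it, which is a level per unit of length and can be compared between genes. A difference between genotypes was counted when it exceeded 1.3-fold, the limit used in the study, which is 0.38 on the log2 scale. The deletions were visible: *RRP6* had a level of 1.01 (WT), 0.118 (*rrp6Δ*) and 1.08 (*rtt109Δ*). *RTT109* had 1.36 (WT), 1.29 (*rrp6Δ*) and 0.0178 (*rtt109Δ*), where 24 of its 27 windows were exactly 0.

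In WT these genes ran from low to fairly high levels of RNAPII among all ORFs, and the 10 levels spanned 2.29-fold. The median ORF had a level of 0.974. By this mean over windows *RTT109* was the highest, at the percentile 88.9 of all ORFs. It was followed by *MMS1* at 1.304 (percentile 85.6), *MMS22* at 1.25 (percentile 82.1) and *RTT101* at 1.13 (percentile 69.8), so the 3 genes of the ubiquitin ligase stood next to each other above the median ORF. *RLF2*, for the large subunit of CAF-1, had 1.03 (percentile 58.8). The deacetylase gene *HST4* had 0.848 (percentile 31.8) and the H3-H4 chaperone gene *ASF1* had 0.783 (percentile 23.2). *VPS75* had 0.725 (percentile 17.0) and the other deacetylase gene *HST3* had 0.714 (percentile 15.8). *CAC2* was the lowest at 0.591, at the percentile 6.14, although its product works in the same complex as that of *RLF2*. Within an ORF the windows varied widely: their SD in WT ran from 0.231 in *HST3* to 0.865 in *RTT109*. Windows overlap and are not replicates, so this spread is along the gene and gives no error for its level. The top place of *RTT109* rests on the mean. Its median window in WT was 1.092, below those of *MMS1* (1.159), *MMS22* (1.136) and *RTT101* (1.099).

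**Figure D1:**
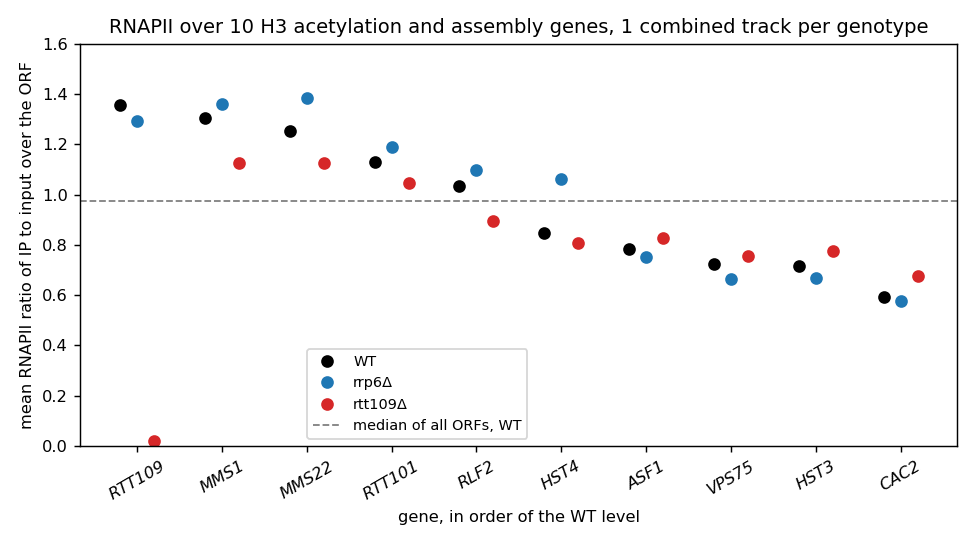
Mean RNAPII ratio of IP to input over each ORF (y axis, no unit) in WT, *rrp6Δ* and *rtt109Δ*, with the 10 genes in order of the WT level on the x axis; each point is 1 combined track, so there are no error bars, and the dashed line is the WT median of all ORFs at 0.974. The point of *RTT109* in *rtt109Δ*, at 0.0178, is the deleted gene, and for the other 9 genes the *rtt109Δ* points cover a narrower range, from 0.677 to 1.13, than the WT points, from 0.591 to 1.304.

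The order of the levels was nearly the same in the 3 tracks, and the exchanges were among genes of similar level. In *rrp6Δ* the order at the top was *MMS22* (1.39), *MMS1* (1.36) and *RTT109* (1.29), the reverse of WT, and *HST3* (0.670) stood just above *VPS75* (0.664), as it also did in *rtt109Δ* (0.778 and 0.755). In *rtt109Δ*, *MMS1* and *MMS22* could hardly be separated, at 1.127 and 1.126, and *ASF1* (0.829) passed *HST4* (0.807). *RTT101* stayed above *RLF2* in all 3 tracks, and *CAC2* was the lowest of the genes present in each strain. Over the 3 tracks, the ORFs whose log2 levels were most like those of *ASF1* were *CAB3*, *NNR2* and the small ORF YLR146W-A. *CAB3* had 0.788 (WT), 0.756 (*rrp6Δ*) and 0.823 (*rtt109Δ*), and its distance from *ASF1* was 0.0155 on the log2 scale. This likeness rests on 3 values per gene.

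Setting *rtt109Δ* against WT shows how RNAPII over these genes stands once H3-K56Ac is lost. Outside the deleted gene, none of the 9 ORFs passed the limit: 0 were more than 1.3-fold lower, where 9.53% of all ORFs were, and 0 were more than 1.3-fold higher, where 8.74% were. A count of 0 among 9 genes is close to that background. The background itself depends on the scaling: division by the track mean gave 4.03% lower and 13.8% higher, and division by the median ORF 6.42% and 11.1%, with 0 of the 9 genes in either direction. The log2 ratios of *rtt109Δ* to WT lay between -0.21 and 0.20, with a median of -0.07, beside -0.05 for all ORFs, whose middle 90% ran from -0.45 to 0.50. The 9 genes therefore all sat inside the range of ordinary ORFs.

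By role, the chaperone genes that work with Rtt109 had slightly higher ratios in *rtt109Δ*. *ASF1* had 0.783 in WT and 0.829 in *rtt109Δ* (log2 ratio 0.08), with 12 of its 17 windows higher. *VPS75* had 0.725 and 0.755 (log2 ratio 0.06), also with 12 of 17 windows higher. The deacetylase genes were on opposite sides of 0. *HST3* had 0.714 in WT and 0.778 in *rtt109Δ* (log2 ratio 0.12, 19 of 27 windows higher), whereas *HST4* had 0.848 and 0.807 (log2 ratio -0.07, 14 of 22 windows lower). Division of each track by its mean moved *HST4* to 0.02, on the other side of 0. None of these values reached the limit.

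All 3 genes of the ubiquitin ligase were lower in *rtt109Δ*, by less than the limit, as were 56.7% of all ORFs by any amount. *MMS1*, whose product links the cullin to its substrate receptor, had 1.304 (WT), 1.36 (*rrp6Δ*) and 1.13 (*rtt109Δ*), a log2 ratio of -0.21. Of its 84 windows, 55 were lower, and the highest, centred 2848 bp after the start codon, had 4.03 in WT, 4.32 in *rrp6Δ* and 2.15 in *rtt109Δ*. Without that window and the next highest the log2 ratio was -0.17. *MMS22* had 1.25 in WT and 1.13 in *rtt109Δ* (log2 ratio -0.15, 56 of 88 windows lower), and the cullin gene *RTT101* had 1.13 and 1.05 (log2 ratio -0.11, 35 of 51 windows lower). These 3 were below 0 under each setting tried, *RTT101* by as little as -0.02 after division by the track mean. The CAF-1 subunit genes lay on opposite sides of WT. *RLF2* had 1.03 in WT and 0.897 in *rtt109Δ* (log2 ratio -0.20, 26 of 36 windows lower). Its highest window, centred 1675 bp after the start codon and near the end of the ORF, had 2.32, 2.502 and 1.57 in the order WT, *rrp6Δ* and *rtt109Δ*. *CAC2* had 0.591 and 0.677 (log2 ratio 0.20, 20 of 29 windows higher). The signs followed the level: the 4 genes lowest in WT had ratios above 0 and the 5 others had ratios below 0. The *rtt109Δ* track has the narrower range over the whole genome, and the part of that range in these signs was not tested. When the WT distribution was given to both mutants by rank, the log2 ratio of *VPS75* became -0.04 and that of *CAC2* 0.01. Only *VPS75* changed sign. *ASF1* was then at 0.06, *HST3* at 0.05, *HST4* at -0.12 and *RLF2* at -0.20. The ligase genes *MMS1*, *MMS22* and *RTT101* were at -0.10, -0.04 and -0.02.

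In *rrp6Δ* these genes were closer still to WT, with 1 gene standing at the edge. No ORF of the 10 was more than 1.3-fold lower or higher, beside 1.82% and 0.709% of all ORFs. The median of their log2 ratios was 0.01, beside 0.0081 for all ORFs. *HST4* had the largest value: 0.848 (WT), 1.06 (*rrp6Δ*) and 0.807 (*rtt109Δ*), a log2 ratio of 0.33 for *rrp6Δ* and a fold of 1.25. This placed it at the percentile 98.5 of all ORFs, and 16 of its 22 windows were higher than in WT. The excess was in the first and middle parts of the ORF, at 0.40 and 0.49 on the log2 scale, and the last part was at 0.10. Single windows showed it best. In the window centred 614 bp after the start codon the ratio was 1.15 (WT), 1.98 (*rrp6Δ*) and 0.990 (*rtt109Δ*), and 264 bp after the start codon it was 1.1005, 1.87 and 1.04. Both places are crests that WT also has, and at these 2 the *rrp6Δ* crest was the higher. At the highest WT window of the ORF, centred 914 bp after the start codon, *rrp6Δ* was the lower, at 1.17 against 1.25 in WT. The excess rested on windows like those at 264 and 614 bp, since the median over windows gave a log2 ratio of 0.10. Over the other 9 ORFs the log2 ratios ran from -0.13 in *VPS75* to 0.14 in *MMS22*. *ASF1* was at -0.06, *HST3* at -0.09, *CAC2* at -0.04, *RTT109* at -0.07, *RTT101* at 0.08, *MMS1* at 0.06 and *RLF2* at 0.09. With the median over windows in place of the mean, *VPS75* was at 0.15, *RTT101* at -0.02 and *CAC2* at 0.08, so the sign of these 3 is not settled.

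Set against each other without WT, the mutants differed past the limit at the *HST4* ORF alone. The log2 ratio of *rtt109Δ* to *rrp6Δ* was -0.40 there, which passed the limit, as 11.4% of all ORFs did in that direction and 11.3% in the other, so 1 gene of 9 is near the background. With the tracks divided by their mean these shares were 5.45% and 15.7%, and by their median ORF 7.01% and 14%. It no longer passed when the tracks were divided by their mean (-0.31) or by their median ORF (-0.34), with the median over windows (-0.25), with a pseudocount (-0.26) or at a limit of 1.5-fold. The other 8 ORFs lay between -0.30 in *MMS22* and 0.23 in *CAC2*, and the median of the 9 was -0.18, beside -0.06 for all ORFs.

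**Figure D2:**
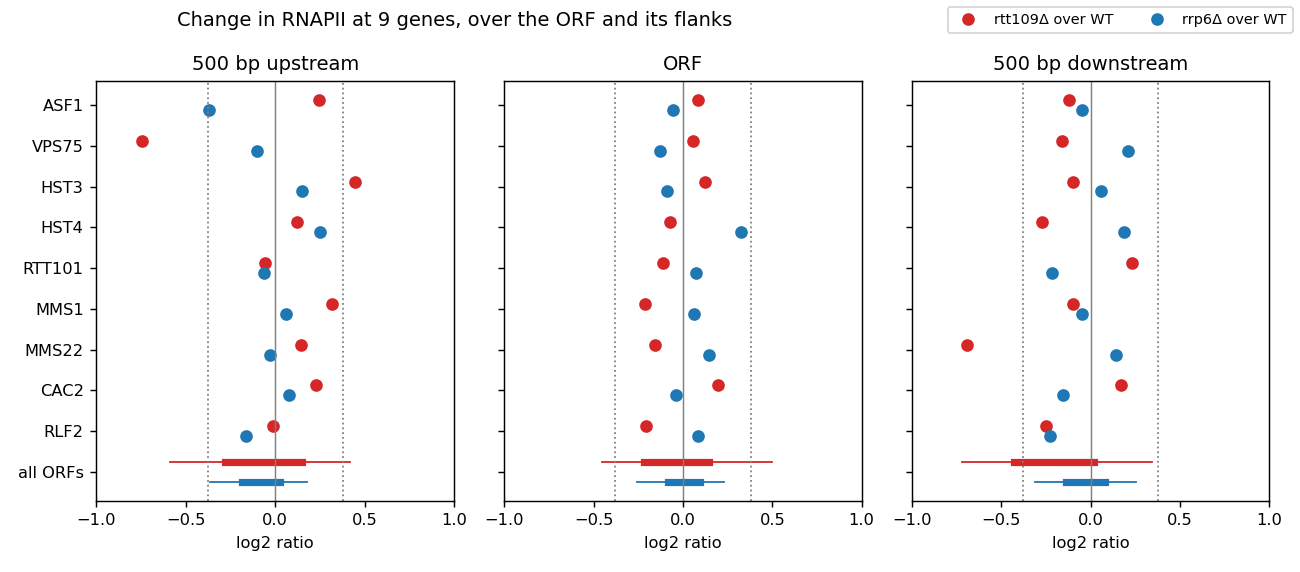
Log2 ratio of each mutant to WT (x axis) for the 9 genes present in both mutants (y axis), in the 500 bp before the start codon, over the ORF and in the 500 bp after the stop codon; the dotted lines mark 1.3-fold, and at the bottom the thick and thin bars give the middle 50% and middle 90% of all ORFs. Over the ORF all points lie inside the limit, and outside it lie *VPS75* (-0.74) and *HST3* (0.44) upstream and *MMS22* (-0.69) downstream, all in *rtt109Δ*.

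Along the ORF, *rtt109Δ* stood lower relative to WT towards the 3′ end in several genes, as it did over all ORFs. Each ORF was cut into a first, a middle and a last part of equal length in the direction of transcription. Over the 9 genes the median log2 ratio was 0.04, 0.02 and -0.02 from the first part to the last, beside 0.03, -0.02 and -0.12 over all ORFs. The number of genes below 0 was 3, 4 and 7 of 9, beside 45.03%, 51.7% and 64.3% of all ORFs. *RLF2* was at 0.01, -0.31 and -0.32, and *MMS1* at -0.02, -0.26 and -0.33. *HST4* went from 0.16 through -0.09 to -0.31, and *HST3* from 0.23 through 0.16 to -0.02. *RTT101* did not follow this course, at -0.14, -0.16 and -0.01. A steady fall was also absent in *CAC2* (0.36, 0.02 and 0.19) and *VPS75* (0.04, 0.14 and -0.01). The same held for *ASF1* (0.18, 0.02 and 0.03) and *MMS22* (-0.15, 0.02 and -0.30), whose last part holds the peak at its stop codon described below. In *MMS1* the last part had a ratio of 1.32 (WT), 1.56 (*rrp6Δ*) and 1.05 (*rtt109Δ*), so the mutants lay on opposite sides of WT. *MMS22* showed the same there, with 1.58 (WT), 1.96 (*rrp6Δ*) and 1.29 (*rtt109Δ*). Over all ORFs the medians of the last part were also on opposite sides of 0, at 0.04 for *rrp6Δ* and -0.12 for *rtt109Δ*. In *rrp6Δ* 42.2% of all ORFs were below 0 there.

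The 500 bp on each side of the ORFs varied more than the ORFs did. ChIP-seq signal has no strand, so RNAPII in a gap between genes cannot be assigned to either of them. In the upstream flanks 1 of 9 genes, *VPS75*, was more than 1.3-fold lower in *rtt109Δ* and 1 of 9, *HST3*, was more than 1.3-fold higher, beside 15.9% and 6.63% of all ORFs. In the downstream flanks *MMS22* was lower and none was higher, beside 30.6% and 3.86%. No flank of the 10 genes passed the limit in *rrp6Δ*, where the shares of all ORFs were 4.43% lower and 0.363% higher upstream, and 2.35% lower and 0.952% higher downstream. The median log2 ratio of the upstream flanks in *rtt109Δ* was 0.14, beside -0.06 for all ORFs, with 6 of 9 above 0, beside 42.1%. The median of the downstream flanks was -0.12, beside -0.22. In *rrp6Δ* the corresponding medians were 0.02 upstream and 0.0048 downstream, beside -0.08 and -0.03. Between the mutants they were 0.16 upstream and -0.07 downstream, beside -0.00023 and -0.19. In that comparison 1 of 9 upstream flanks was lower in *rtt109Δ* (*VPS75*, -0.64) and 1 was higher (*ASF1*, 0.62), beside 10.5% and 13.7% of all ORFs. Downstream, 2 of 9 were lower (*MMS22* at -0.83 and *HST4* at -0.46) and 1 was higher (*RTT101*, 0.45), beside 30.4% and 6.98%.

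*VPS75* had the strongest signal near any of these genes, and it lay outside its ORF. The gap of 281 bp between *CRS1*, which encodes a tRNA synthetase and is transcribed in the same direction, and *VPS75* held a sharp peak. In the window at 185251 to 185350 of chromosome XIV, centred at -159 bp from the *VPS75* start codon, the ratio was 11.3 (WT), 10.9 (*rrp6Δ*) and 6.48 (*rtt109Δ*). Only 38 of the 228888 windows of the WT track were at or above this value, 37 in *rrp6Δ* for its own, and 188 in *rtt109Δ*. The window before it had 6.75, 7.01 and 2.88, and the window after it was back at 1.19, 1.09 and 0.727. Over the whole upstream flank the mean was 2.61 (WT), 2.43 (*rrp6Δ*) and 1.56 (*rtt109Δ*), a log2 ratio of -0.74 for *rtt109Δ* and -0.10 for *rrp6Δ*. Without the 2 peak windows the flank had 1.01 (WT), 0.803 (*rrp6Δ*) and 0.777 (*rtt109Δ*), log2 ratios of -0.33 for *rrp6Δ* and -0.37 for *rtt109Δ*, both inside the limit. Outside the peak the flank was thus nearly as low in *rrp6Δ* as in *rtt109Δ*. The ORF beside this peak had low values in all tracks, and its 3 parts in *rtt109Δ* were at 0.04, 0.14 and -0.01 relative to WT. Thus the peak upstream of *VPS75* was lower in *rtt109Δ* while the ORF was not.

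*MMS22* had its peak at the other end. The window at 776251 to 776350 of chromosome XII, which spans the stop codon, had a ratio of 6.75 (WT), 7.38 (*rrp6Δ*) and 4.85 (*rtt109Δ*), and the next window had 7.06, 6.95 and 3.62. The gap here is 279 bp long and separates *MMS22* from *SFH1*, a gene for a chromatin remodelling subunit that is transcribed towards it. Over the downstream flank the mean was 2.31 (WT), 2.55 (*rrp6Δ*) and 1.43 (*rtt109Δ*), a log2 ratio of -0.69. Without the 2 windows highest in WT it was -0.49, so the difference extended past the peak, into the last part of the *SFH1* ORF. Without the window at the stop codon the ratio over the *MMS22* ORF was -0.14 rather than -0.15.

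*HST3* differed in the opposite direction. Its upstream flank had a mean of 0.859 (WT), 0.954 (*rrp6Δ*) and 1.17 (*rtt109Δ*), a log2 ratio of 0.44, and all 10 windows of the flank were higher in *rtt109Δ* than in WT. The crest was centred at -118 bp from the start codon in all 3 tracks, at 1.64 (WT), 2.08 (*rrp6Δ*) and 1.95 (*rtt109Δ*). Among the windows away from it, at -218 bp the ratio was 0.751 (WT), 0.803 (*rrp6Δ*) and 1.28 (*rtt109Δ*). Without the 2 highest windows the log2 ratio was 0.50. The higher values of *rtt109Δ* thus covered the whole 500 bp and not the crest alone.

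**Figure D3:**
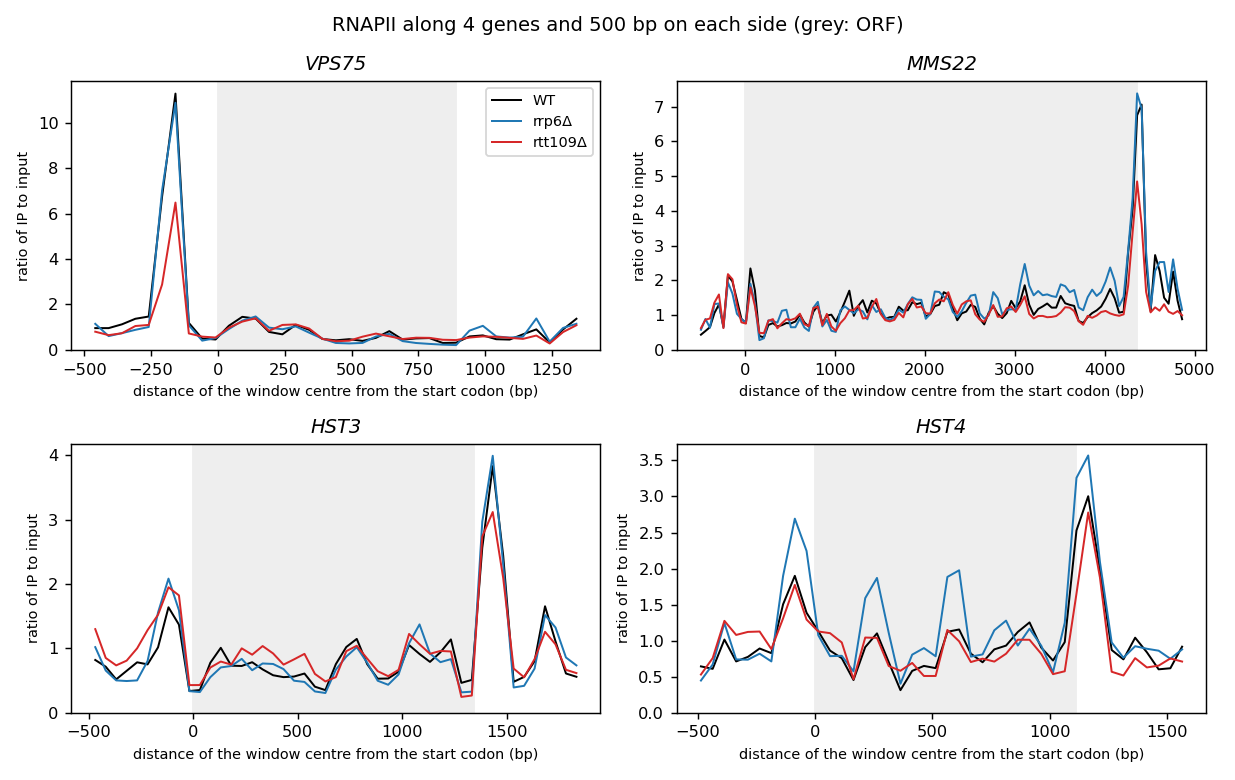
Ratio of IP to input in single windows (y axis) against the distance of the window centre from the start codon in bp (x axis) at *VPS75*, *MMS22*, *HST3* and *HST4*, 1 line per genotype, with the ORF in grey. The *rtt109Δ* line is below the others at the peak before *VPS75* (6.48 against 11.3 in WT) and at the end of *MMS22* (4.85 against 6.75). Inside *HST4* the *rrp6Δ* line is above WT at the crest 614 bp after the start codon (1.98 against 1.15). It is below WT at the crest at 914 bp (1.17 against 1.25).

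Against WT the other flanks stayed inside the limit at 500 bp. Before *ASF1* the mean was low in all tracks, at 0.750 (WT), 0.580 (*rrp6Δ*) and 0.889 (*rtt109Δ*), so that the mutants lay on either side of WT with log2 ratios of -0.37 and 0.25. After its stop codon it was high, at 2.16, 2.09 and 1.98, with crests of 3.09, 3.12 and 3.41 that were centred 74 bp past the ORF. A tRNA gene lies 186 bp past the *ASF1* ORF, and the single window centred in it had 1.03, 0.585 and 0.857. For *MMS1* the upstream flank had 1.01 in WT and 1.26 in *rtt109Δ* (log2 ratio 0.32), and for *CAC2* 0.988 and 1.16 (log2 ratio 0.23). These 2 depended on the width of the flank: in the nearest 300 bp the log2 ratios were 0.68 for *MMS1* and 0.43 for *CAC2*, both past the limit. *HST3* (0.44) and *VPS75* (-0.81) passed it there too, as they did at 500 bp. The share of all ORFs past the limit at 300 bp is not given here, so these values cannot be read against a background. *HST4* had 1.03 upstream in WT, 1.22 in *rrp6Δ* and 1.11 in *rtt109Δ*, and its *rrp6Δ* crest of 2.69, centred at -86 bp from the start codon, stood above the 1.90 of WT and the 1.77 of *rtt109Δ*. In the gap after *HST4*, which faces *NUP42*, the crests were 3.004, 3.57 and 2.78 in the same order of WT, *rrp6Δ* and *rtt109Δ*. *RTT101* had 1.15, 1.104 and 1.11 upstream, and its downstream flank contains the small nucleolar RNA gene *SNR60*. *RLF2* had 1.35, 1.21 and 1.34 upstream and 1.33, 1.14 and 1.12 downstream.

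High windows near these genes were mostly lower in *rtt109Δ*, as high windows were elsewhere. Over the 9 ORFs and their flanks, 13 windows in 6 genes had a ratio of at least 3 in *rrp6Δ*, the track that takes no part in this comparison. Of these, 11 (84.6%) were lower in *rtt109Δ* than in WT, beside 87.2% of the 9622 such windows in the genome. Among windows below 3, 53.9% were lower near these genes and 50.1% in the genome. The threshold of 3 was set after the values had been seen. The SD over the windows of an ORF was smaller in *rtt109Δ* than in WT in 6 of the 9 genes, beside 75.8% of the 4978 ORFs with at least 10 windows, and in *rrp6Δ* it was smaller in 1 of 9, beside 32.2%.

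At the deleted locus the neighbours were read in place of *RTT109*. *SFI1*, a gene for a spindle pole body protein, ends 249 bp before the *RTT109* start codon, and *DNM1*, for a mitochondrial fission GTPase, begins 288 bp after its stop codon. All 3 genes point the same way. Over *SFI1* the level was 1.38 (WT), 1.47 (*rrp6Δ*) and 1.29 (*rtt109Δ*), a log2 ratio of -0.10 for *rtt109Δ*. The difference was in its end: the last 500 bp had 1.37 in WT and 0.973 in *rtt109Δ* (log2 ratio -0.49), and the rest of the ORF had 1.38 and 1.36 (log2 ratio -0.03). The WT peak of 4.47, centred at -290 bp from the *RTT109* start codon, stood at 4.63 in *rrp6Δ* and 1.83 in *rtt109Δ*. This window is centred inside the last 500 bp of *SFI1* and carries much of the difference there, and the mean without it was not taken. In *rtt109Δ* the highest window of that flank was instead the one centred at -190 bp, with 2.97, where WT had 2.00. The whole upstream flank was at 1.98 (WT), 2.16 (*rrp6Δ*) and 1.46 (*rtt109Δ*) (log2 ratio -0.44).

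On the other side of the deletion *rtt109Δ* was higher than WT. The window at 147601 to 147700 of chromosome XII, the first beyond the stop codon, had a ratio of 2.92 (WT), 3.14 (*rrp6Δ*) and 6.75 (*rtt109Δ*), and 144 of 228888 windows of that track were at or above this value. The window before it, across the stop codon, had 2.06, 1.25 and 0.452. The gap up to *DNM1* had a mean of 1.16 (WT), 1.33 (*rrp6Δ*) and 2.51 (*rtt109Δ*), a log2 ratio of 1.11. The first 500 bp of the *DNM1* ORF had 0.804 in WT and 1.09 in *rtt109Δ* (log2 ratio 0.44), and the rest of it had 1.16 and 1.36 (log2 ratio 0.22). *DNM1* as a whole was at 1.09 (WT), 1.14 (*rrp6Δ*) and 1.3004 (*rtt109Δ*), a log2 ratio of 0.26, inside the limit. The excess was thus largest at the edge of the deletion and smaller with distance from it. The downstream flank as a whole had a log2 ratio of 0.82, and 0.63 without its highest window. In *rrp6Δ*, where *RTT109* is intact, the same regions were between 0.06 and 0.25 on the log2 scale.

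**Figure D4:**
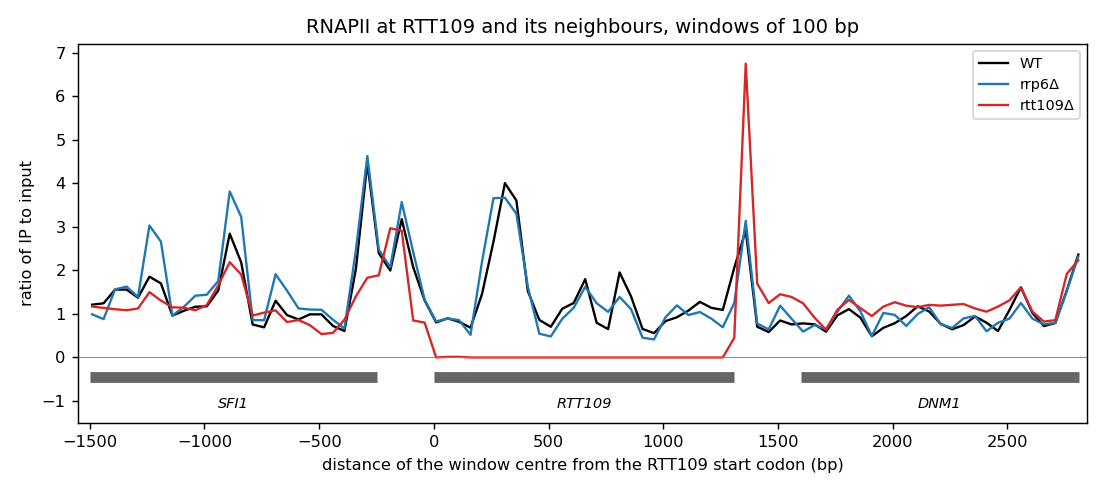
IP to input ratio per 100 bp window (y axis) against the distance of the window centre from the *RTT109* start codon in bp (x axis), 1 line per genotype, with the ORFs of *SFI1*, *RTT109* and *DNM1* as grey bars. The *rtt109Δ* line is at or near 0 over *RTT109* and reaches 6.75 in the first window past its stop codon, where WT has 2.92.

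Related genes outside the 10 were read in 5 lists: other H3 chaperones and assembly factors, histone acetyltransferases, deacetylases, fork factors and partners of Rtt101, and the SWR-C remodelling complex with its histone H2A.Z. These lists were drawn up with earlier results of these data known, and all 42 genes had values. In *rtt109Δ*, 1 of 42 was more than 1.3-fold lower and 2 were higher, beside 9.53% and 8.74% of all ORFs, and in *rrp6Δ* none was lower and none higher, beside 1.82% and 0.709%. The lower gene was *RTT107*, for a scaffold protein that joins the Rtt101 ligase at damaged forks, with 1.296 (WT), 1.35 (*rrp6Δ*) and 0.988 (*rtt109Δ*) (log2 ratio -0.39). *NAP1*, for an H2A-H2B chaperone of the same family as Vps75, was higher, at 0.404, 0.331 and 0.575 (log2 ratio 0.51). *SWC3*, for a subunit of SWR-C, was at 0.857, 0.926 and 1.16 (log2 ratio 0.44). It lies on chromosome I, where the median ORF had a log2 ratio of 0.30.

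By list, the median log2 ratio in *rtt109Δ* was -0.11 for the chaperones, -0.19 for the acetyltransferases, -0.06 for the deacetylases, -0.27 for the fork factors and 0.06 for SWR-C with H2A.Z, beside -0.05 for all ORFs. In *rrp6Δ* these medians were 0.07, -0.0098, 0.05, 0.06 and 0.08 in the same order, beside 0.0081. All 7 fork factors and Rtt101 partners were below 0 in the tracks as deposited, from -0.39 to -0.06, beside 56.7% of all ORFs, but division by the track mean, which adds 0.09 to every log2 ratio of *rtt109Δ*, put *MRC1*, a checkpoint mediator gene, at 0.04 and left 6 of 7 below 0. It also put the deacetylase median at 0.03, left *RTT107* inside the limit, and put *SWC7* outside it. *CTF18*, a clamp loader gene, was next to the limit at -0.37 as deposited. In the comparison of *rtt109Δ* with *rrp6Δ*, 7 of the 42 genes were lower and 2 were higher, beside 11.4% and 11.3% of all ORFs. The lower genes were *HIR1*, *HIR3*, *ADA2*, *SAS2*, *RTT107*, *CTF18* and *VPS71*, between -0.45 and -0.39, and the higher genes were *NAP1* at 0.80 and *SWC7* at 0.45. These calls hold for the tracks as deposited. Division by the track mean raises every log2 ratio of this comparison equally, and moved *HST4* from -0.40 to -0.31. The same shift takes all 7 lower genes inside the limit and *SWC3*, at 0.33 as deposited, outside it. The shares of all ORFs were then 5.45% lower and 15.7% higher. The third CAF-1 subunit gene, *MSI1*, had 0.995 (WT), 1.13 (*rrp6Δ*) and 0.922 (*rtt109Δ*), so that *MSI1* and *RLF2* were below WT in *rtt109Δ* and *CAC2* above it.

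**Figure D5:**
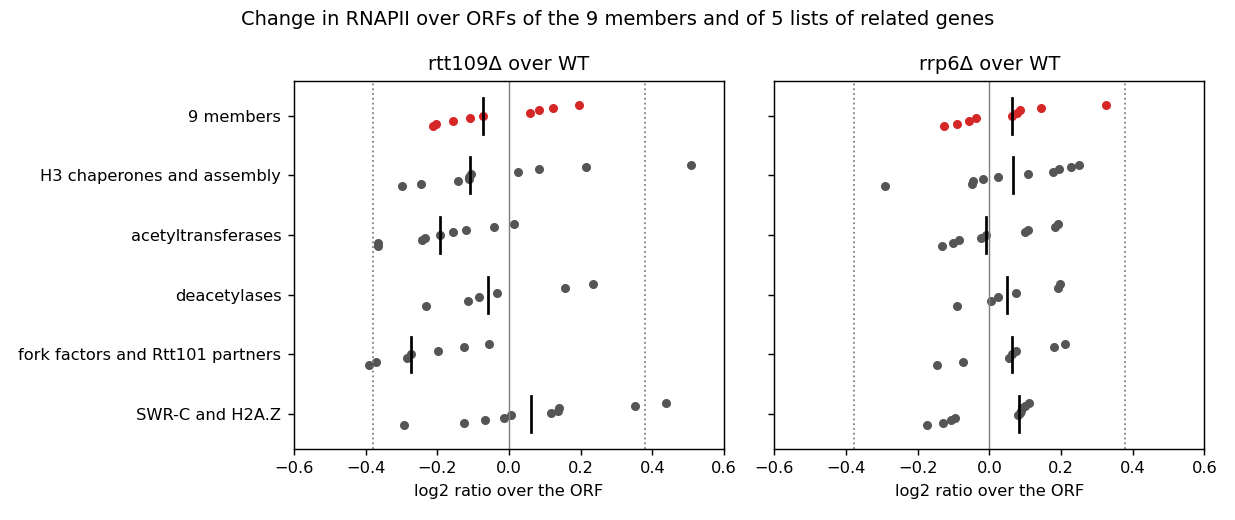
Log2 ratio over the ORF of *rtt109Δ* to WT (left) and of *rrp6Δ* to WT (right) on the x axis, for the 9 genes other than *RTT109* (red) and the 42 genes of 5 lists (grey); each point is 1 gene, the black bar is the median of its list, and the dotted lines mark 1.3-fold. With the tracks as deposited, in *rtt109Δ* only *RTT107*, *NAP1* and *SWC3* lie outside the limit, at -0.39, 0.51 and 0.44, and in *rrp6Δ* none does.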

How the data were processed

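The authors deposited 1 track per genotype, holding IP to input ratios for 100 bp windows at 50 bp steps. The submitters' processing notes name the sacCer3 build, FastQC, Bowtie2, SAMtools, deepTools and bedtools, without roles or versions. How replicates were merged and why the median window is 1 is not given in the sources used here, and a difference uniform along the genome cannot be read from such tracks. Chromatin was cut with micrococcal nuclease, which can shape the ratios.

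Gene positions came from RefSeq R64, which has 6002 nuclear ORFs, of which 214 lie on chromosome IX and 7 more contained no window centre. ORF means used windows centred in the ORF, without pseudocount or filter. *RTT109* was left out of counts and medians involving *rtt109Δ*. The genes and lists were chosen with earlier results of these data known. By rule, the text names all 10 genes, ORFs reaching into their flanks, list genes past 1.3-fold and the 3 ORFs nearest to *ASF1* by Euclidean distance of log2 levels. *MSI1*, *CTF18*, *MRC1* and the single windows were chosen after their values were seen. Promoter motifs were not searched. The scripts were tested on simulated data with Python 3.11.15, numpy 2.4.6, pandas 2.3.3 and matplotlib 3.10.9.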

Additional observations from a re-analysis of the deposited data

How the results depend on the processing

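The tracks were also scaled by their mean or their median ORF, and the median over windows, windows wholly inside the ORF, a pseudocount of 0.487, a limit of 1.5-fold, and flanks of 300 and 1000 bp were tried. The WT distribution given by rank was added after the data had been seen. Of 442 recomputed values, 429 stayed within the spread of their windows or genes, or within 1.5 times the count, and 13 moved. That spread is wide beside these ratios and is no error, so the count of 429 does not show them to be stable. For *rtt109Δ* against WT, *CAC2* went from 0.20 to 0.01 by rank and was counted as staying. So was the *MMS1* upstream flank, which went from 0.32 to 0.68 at 300 bp, and so were the changes of sign at *HST4* and *VPS75*. No ORF of the 9 other than *HST4* passed the limit under these settings, and the count of ORFs lower in *rtt109Δ* than in *rrp6Δ* went from 1 to 0 under both scalings, the median over windows, the pseudocount and the limit of 1.5-fold. Over the ORFs, the median log2 ratio for *rtt109Δ* was 0.02 after division by the mean, and for the downstream flanks it was 0.0017 at 300 bp. Of all ORFs, 9.53% were lower and 8.74% higher in *rtt109Δ* than in WT as deposited, 4.03% and 13.8% after division by the mean, and 2.39% and 2.73% with the pseudocount. The causes were not tested. Read depth and replicate error are unknown, which limits every small difference here. No paired analysis was possible because the deposited tracks merge the replicates of a genotype, so that none could be left out either.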

Other observations

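The ORFs next to the other 9 genes were also read, and 1 of them passed 1.3-fold in a mutant against WT, by little and in *rrp6Δ*. Of all ORFs, 1.82% were lower and 0.709% higher in *rrp6Δ*, and 9.53% and 8.74% in *rtt109Δ*. A single call so near the limit is not set apart from that background. *CUE4*, whose stop codon lies 34 bp from that of *CAC2*, had 0.560 in WT, 0.426 in *rrp6Δ* and 0.642 in *rtt109Δ*, a log2 ratio of -0.39 for *rrp6Δ* over 7 windows and of 0.20 for *rtt109Δ*. *RVB1*, which shares a divergent gap of 341 bp with *HST4* and encodes a helicase of several remodelling complexes, had 0.784, 0.852 and 0.966, log2 ratios of 0.12 and 0.30. *SFH1*, beyond the peak at the end of *MMS22*, had 0.999, 1.12 and 0.858, so the mutants lay on either side of WT there as well, with a log2 ratio of -0.39 between them. *MCM4*, for a subunit of the replicative helicase that follows *RLF2*, was alike in the 3 tracks at 0.995, 1.01 and 1.02. *BUB3*, a spindle checkpoint gene that follows *HST3*, had 0.875, 0.942 and 0.936. *CRS1*, which ends just before the peak upstream of *VPS75*, had 0.885, 0.834 and 0.905, a log2 ratio of 0.03 for *rtt109Δ*. The *VPS75* ORF was at 0.06, so as deposited neither ORF beside that peak was lower in *rtt109Δ*, while the peak was. The other ORFs that reach into a flank were inside 1.3-fold in each mutant against WT. *AIM22* and *BUD6*, divergent from *RTT101* and *MMS22*, had log2 ratios of -0.22 and -0.12 for *rtt109Δ*. *CWC25*, whose end overlaps that of *VPS75*, was at -0.14, *NUP42* at -0.11 and *RHO1*, which follows *MMS1*, at -0.05. The small ORFs YJL047C-A and YML100W-A, with 3 and 4 windows, were at 0.21 and 0.25.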
